A study of Bos taurus with 19 samples.

Results

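Adenylyl cyclases and the subunits of protein kinase A (PKA) were examined in bovine theca interna, the vascular layer beneath the granulosa cells, in which androgens are made. The members are ADCY2 and ADCY8 (adenylyl cyclases), PRKACA and PRKACB (catalytic subunits of PKA), and PRKAR1A, PRKAR2A and PRKAR2B (regulatory subunits). They were taken as every probe set whose single gene symbol in the array annotation is 1 of these names. This gave 8 probe sets for 7 genes, out of 24127 probe sets on the array and 9156 genes with a symbol, and PRKACB alone has 2 probe sets. The 7 genes were chosen from results of these same arrays, among them the higher ADCY2 signal of large follicles, so their differences are given as descriptions with intervals and without p-values.

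A cyclase in the plasma membrane turns ATP into the second messenger cyclic AMP (cAMP) when a receptor activates the stimulatory G protein. In theca cells that receptor is best known as the luteinising hormone receptor, LHCGR. PKA at rest holds a pair of regulatory and a pair of catalytic subunits. When cAMP binds the regulatory subunits, the catalytic subunits are freed to phosphorylate targets such as the transcription factor CREB, and in theca this pathway is known for raising androgen synthesis.

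RNA came from follicles of non-pregnant heifers collected after slaughter, with the granulosa cells scraped off before the theca interna was dissected, and no treatment was given. The 19 one-colour Affymetrix arrays hold 1 follicle each: 4 large healthy follicles over 9 mm, 5 small atretic (degenerating) follicles, 5 small healthy follicles with rounded basal granulosa cells and 5 with columnar ones. The small follicles, atretic ones included, measured 3 to 5 mm. Nothing states that each follicle came from a separate animal, so the errors measure only the spread between these follicles. According to the sample records, the RNA kit differed between large, small atretic and small healthy follicles, and 0.25 µg of RNA was labelled for atretic follicles against 2 to 5 µg for healthy ones, whereas the methods name a single extraction reagent and a single, smaller amount of RNA for labelling. By the records, RNA preparation and group cannot be told apart, except between rounded and columnar follicles.

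All values are log2 signals, so a difference of 1 is a 2-fold difference, and the deposited values have 1 decimal. Array medians were 3.8 to 3.9. Each of the 7 theca genes from the list of steroidogenic markers was detected, and INSL3, the hormone that defines theca cells, read between 10 and 12.5 on every array. The granulosa marker CYP19A1, on its brightest probe set, was highest on large replicate 2 (5.8) and columnar replicate 1 (3.9). Large replicates 3 and 4 followed at 3.7 and 3.3, and all remaining arrays read 1.7 to 2.3. Leaving out the 2 highest arrays, as done below, therefore keeps 2 large follicles with this signal. Spike-in poly-A controls, added during labelling, averaged 5.88 ± 0.28 on large, 4.78 ± 0.32 on atretic and 4.57 ± 0.22 on small healthy arrays (SD, n = 4, 5 and 10). Hybridization controls averaged 7.81, 7.85 and 7.66 in the same order of groups. The part of these controls in the results was not tested.

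Both cyclases read higher in the theca of large follicles than in that of small healthy follicles. In atretic theca the means of both were also higher, by 0.89 for ADCY2 and 1.25 for ADCY8. Only the atretic difference of ADCY8 met the criteria for a call. None of the PKA subunits reached a 2-fold difference anywhere. ADCY2, a cyclase insensitive to calcium and stimulated further by G protein βγ subunits, read 6.2, 4.5, 5.4 and 5.3 in the 4 large follicles. The 5 atretic follicles read 4.7, 3.5, 3.7, 5.8 and 6.0. It read 4.2, 4.2, 3.4, 3.9 and 4.2 in rounded follicles, and 3.9, 3.8, 3.9, 3.0 and 4.0 in columnar follicles. All 4 large follicles stood above all 10 small healthy ones, while the atretic follicles fell apart, with 3 above every small healthy follicle and the others among them. The mean was 5.35 ± 0.70 in large follicles (SD, n = 4) and 3.85 ± 0.38 in small healthy follicles (SD, n = 10). The difference was 1.5 on the log2 scale (SE 0.26, 95% interval 0.95 to 2.05), or 2.83-fold, the 45th in size among the 15570 probe sets tested. Against rounded follicles alone the difference was 1.37 and no longer met the criteria for a call, whereas against columnar follicles alone it met them.

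ADCY2 averaged 4.74 ± 1.15 in atretic follicles (SD, n = 5), which was 0.89 above the small healthy mean (SE 0.35, 95% interval 0.14 to 1.64) and was not called. The fit takes 1 common spread for both groups, although the atretic follicles spread more widely. This interval may therefore be too narrow. The spread among atretic follicles, 2.5 from lowest to highest, was wider than in any other group. Single arrays moved this difference either way. Without atretic replicate 2 it was 1.20 and without atretic replicate 3 it was 1.15, and both then met the criteria. Without atretic replicate 5 it was 0.58 and without atretic replicate 4 it was 0.63, neither of them called. The order of the group means ran from large through atretic and rounded to columnar follicles. Neighbours at both ends of this order did not separate beyond their spread, with intervals of -1.86 to 0.64 for atretic minus large and -0.34 to 0.86 for rounded minus columnar follicles.

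ADCY8, a cyclase stimulated by calcium and calmodulin, read 4.2, 3.9, 3.8 and 3.3 in large follicles. Its atretic readings were 3.9, 2.4, 3.8, 3.8 and 5.1. It read 2.7, 3.3, 2.1, 2.6 and 2.0 in rounded follicles and 2.2, 2.7, 2.4, 2.3 and 3.2 in columnar follicles. A signal over 3 was taken as detected, and ADCY8 passed it in 4 of 4 large, 4 of 5 atretic and 2 of 10 small healthy follicles. The small healthy level therefore lies mostly below detection, and the size of the difference from it is uncertain. Only 3 of the 4 large follicles stood above every small healthy follicle, since large replicate 4 equalled the highest of them. In atretic theca, replicate 2 lay among the small healthy follicles and the other 4 lay above them all.

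The mean of ADCY8 was 3.8 ± 0.37 in large follicles (SD, n = 4) and 2.55 ± 0.44 in small healthy follicles (SD, n = 10), a fitted difference of 1.25 (SE 0.23, 95% interval 0.76 to 1.74). No fold is given, since the small healthy mean lies below the detection level. Atretic follicles also averaged 3.8, with a wider SD of 0.96 (n = 5), and stood 1.25 above the small healthy mean (SE 0.32, 95% interval 0.57 to 1.93). Since the fit takes 1 common spread, this interval may be too narrow as well. Without atretic replicate 5, the follicle at 5.1, this difference was 0.93 and was not called. Without the 2 arrays of highest CYP19A1 the difference between large and small healthy follicles was 1.18 and was not called. Against rounded follicles alone neither difference of ADCY8 was called, although both were 1.26. Against columnar follicles alone both were called. Atretic minus large follicles differed by 0 (95% interval -0.98 to 0.98) and rounded minus columnar ones by -0.02.

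**Figure D1:**
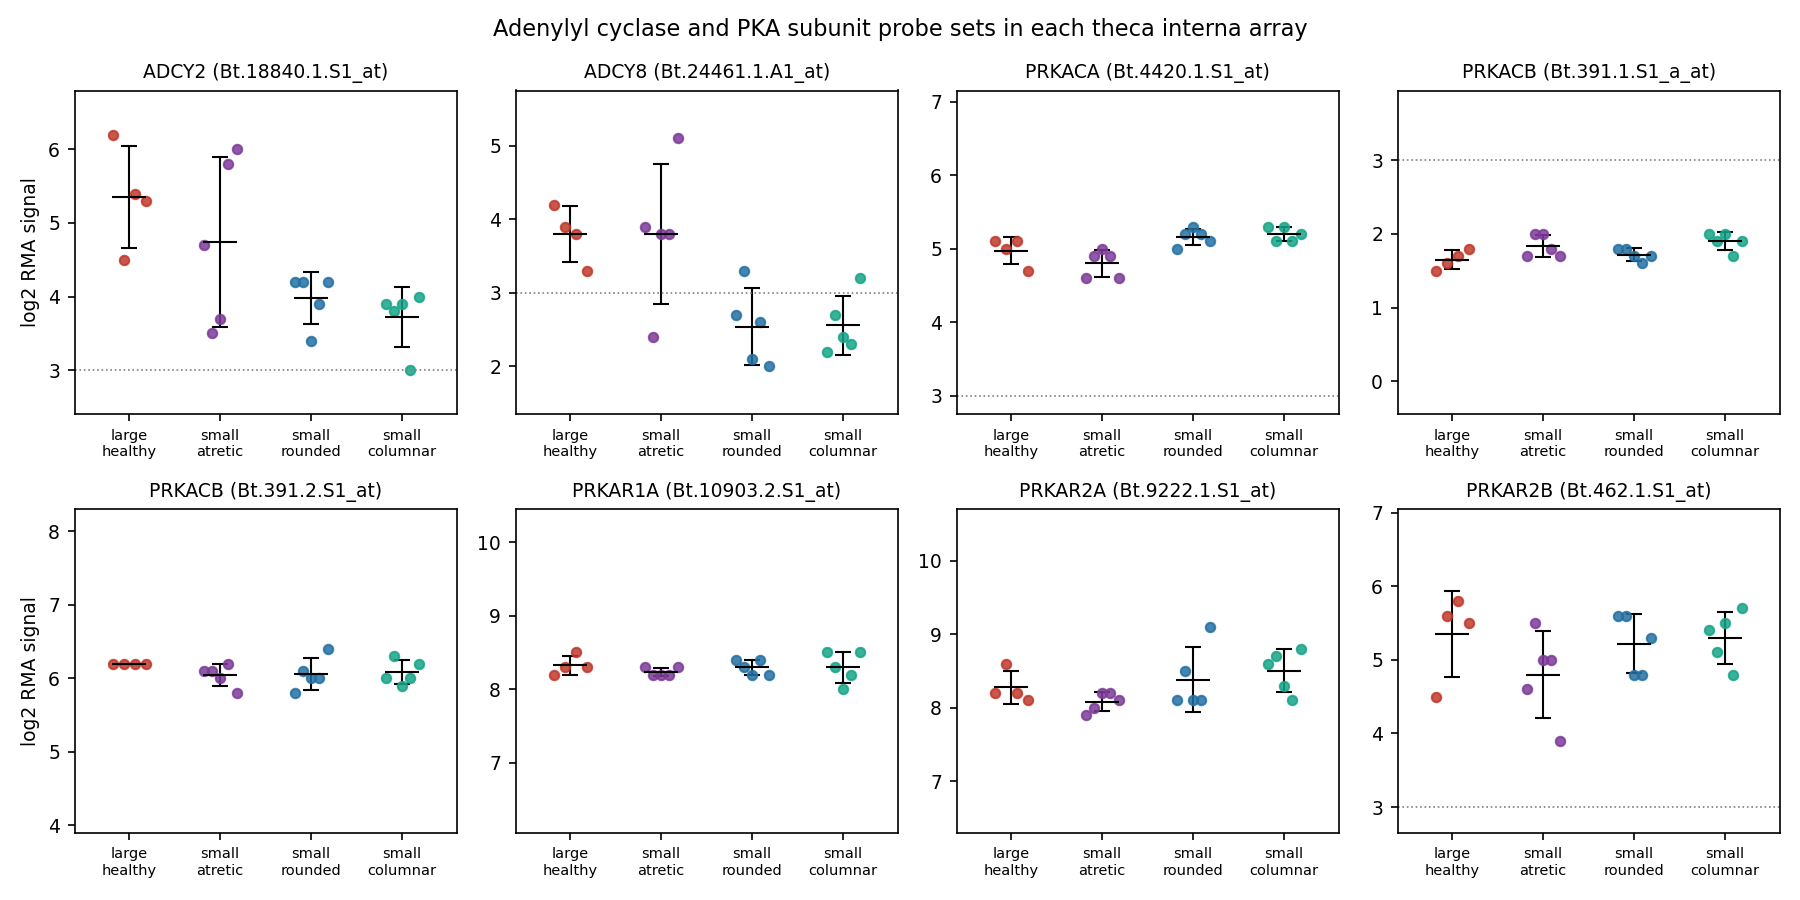
Log2 signal of the 8 probe sets on the 19 arrays, 1 panel per probe set, with large healthy, small atretic, rounded and columnar follicles from left to right. Points are follicles, bars are the group mean ± SD, and the dotted line marks the detection level of 3. Each axis spans the same number of log2 units. ADCY2 spreads widely in large and atretic follicles, and ADCY8 in atretic ones. PRKACA, PRKACB and PRKAR1A lie almost flat, and the first PRKACB probe set stays under the line.

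The catalytic subunits varied little between follicles. PRKACA, which encodes the widely expressed catalytic subunit alpha, read 5.1, 5.0, 5.1 and 4.7 in large follicles. Atretic follicles read 4.6, 4.9, 5.0, 4.9 and 4.6. Small healthy follicles ran from 5.0 through a median of 5.2 to 5.3. Atretic theca was the lowest, with 4 of 5 follicles below every small healthy one and the other equal to the lowest of them. The atretic mean of 4.80 ± 0.19 (SD, n = 5) lay below the small healthy mean of 5.18 ± 0.10 (SD, n = 10) by a difference of -0.38 (SE 0.08, 95% interval -0.55 to -0.21), which is well under 2-fold. Large minus small healthy follicles differed by -0.21 (95% interval -0.39 to -0.02), atretic minus large ones by -0.18 (95% interval -0.46 to 0.11) and rounded minus columnar ones by -0.04.

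PRKACB encodes catalytic subunit beta, and its 2 probe sets did not behave alike. The first probe set read 1.5 to 2.0 on all 19 arrays, under the detection level, and was not tested. The second probe set was detected throughout and read 6.2 in every one of the 4 large follicles. It read 6.1, 6.1, 6.0, 6.2 and 5.8 in atretic follicles, so that 4 of 5 lay below all large follicles by 1 to 4 steps of the deposited rounding. Small healthy follicles ran from 5.8 to 6.4 and enclosed both groups. The differences were 0.13 for large minus small healthy (95% interval -0.08 to 0.34), -0.03 for atretic minus small healthy (95% interval -0.24 to 0.18) and -0.16 for atretic minus large follicles (95% interval -0.37 to 0.05). Over the 19 arrays the 2 probe sets correlated at r = -0.17, given as a description, since 1 of them is not detected.

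Among regulatory subunits, PRKAR1A, the type I subunit whose loss in humans causes Carney complex, was the steadiest of the members. It read 8.2, 8.3, 8.5 and 8.3 in large follicles. The atretic values were 8.3, 8.2, 8.2, 8.2 and 8.3, and in small healthy follicles it ran from 8.0 to 8.5. The groups overlapped fully, and the differences lay at 0.03 for large minus small healthy (95% interval -0.18 to 0.23) and -0.06 for atretic minus small healthy follicles (95% interval -0.23 to 0.11). Rounded and columnar follicles had the same mean, 8.30.

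PRKAR2A encodes a type II regulatory subunit, the kind that A-kinase anchoring proteins tether to membranes and cytoskeleton. It read 8.2, 8.6, 8.2 and 8.1 in large follicles. In atretic follicles it read 7.9, 8.0, 8.2, 8.2 and 8.1. Small healthy follicles ran from 8.1 through a median of 8.4 to 9.1, the highest being rounded replicate 5, and only 2 of 5 atretic follicles lay below all of them. Atretic minus small healthy follicles differed by -0.36 (SE 0.16, 95% interval -0.69 to -0.03) and large minus small healthy ones by -0.17 (SE 0.18, 95% interval -0.55 to 0.22), neither of them called.

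PRKAR2B encodes the second type II subunit, known in granulosa cells of rats as a gene induced by gonadotropin and cAMP. It read 4.5, 5.6, 5.8 and 5.5 in large follicles. In atretic follicles it read 4.6, 5.5, 5.0, 5.0 and 3.9, and in small healthy follicles it ran from 4.8 through a median of 5.35 to 5.7. Its lowest readings were therefore 2 atretic follicles and large replicate 1, which lay below all small healthy follicles. The means were 5.35 ± 0.58 in large (SD, n = 4), 4.80 ± 0.60 in atretic (SD, n = 5) and 5.26 ± 0.36 in small healthy follicles (SD, n = 10). Atretic minus small healthy follicles differed by -0.46 (95% interval -0.93 to 0.01), atretic minus large ones by -0.55 (95% interval -1.31 to 0.21) and large minus small healthy ones by 0.09 (95% interval -0.40 to 0.58). These rest in part on single arrays: without atretic replicate 5 the first was -0.24 and the second -0.33, and without large replicate 1 the second was -0.83 and the third 0.37. Without large replicate 3 the third was -0.06. None of these was called.

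The calls over the members can be set beside those over the whole array. A call here needs an adjusted p under 0.05 in limma together with at least a 2-fold difference. Of the 8 member probe sets 7 passed the detection filter in each comparison. ADCY8 passed it only through the large or atretic follicles, where it reads high, so its calls against small healthy follicles are no more than a description. Between large and small healthy follicles 2 of these 7 were called, ADCY2 and ADCY8, both higher, where 0.706% of the 15570 tested probe sets were called, 0.629% higher and 0.0771% lower. Neither of these 2 probe sets is on the list that the authors published for this comparison, made at the same limits by analysis of variance. On the deposited values an analysis of variance model without moderation also called 2 member probe sets. The reason for the difference from the published list was not tested. With no fold limit the count stayed at 2 of 7, where 3.58% passed. The median difference of the 7 was 0.09, against -0.01 over all tested probe sets. Nothing is read from these shares, since the members were chosen on this contrast.

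Between atretic and small healthy follicles 1 of 7 was called, ADCY8, where 3.68% of 15470 probe sets were called, 2.08% higher and 1.6% lower. PRKACA also passed the adjusted p but not the fold limit, which makes 2 of 7 with no fold limit, where 31.9% passed. The median difference of the 7 was -0.06, against 0.01 over all probe sets. These first comparisons share the 10 small healthy arrays, so their values are not independent of each other.

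Between atretic and large follicles limma called 0 of 7, where it called 0% of 15326 probe sets. At an unadjusted p under 0.05 there were 2763 probe sets, and the ordinary analysis of variance model called 0 as well. The lowest of the 7 differences was -0.61, that of ADCY2, and the highest was 0, that of ADCY8. Between rounded and columnar follicles limma again called 0 of 7, where it called 0% of 15570 probe sets, with 360 at an unadjusted p under 0.05 and 0 by the analysis of variance model. There the members lay between -0.12 for PRKAR2A and 0.26 for ADCY2. An uncalled difference does not show that follicles were alike, and between atretic and large follicles the intervals of ADCY2 and ADCY8 were wide.

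**Figure D2:**
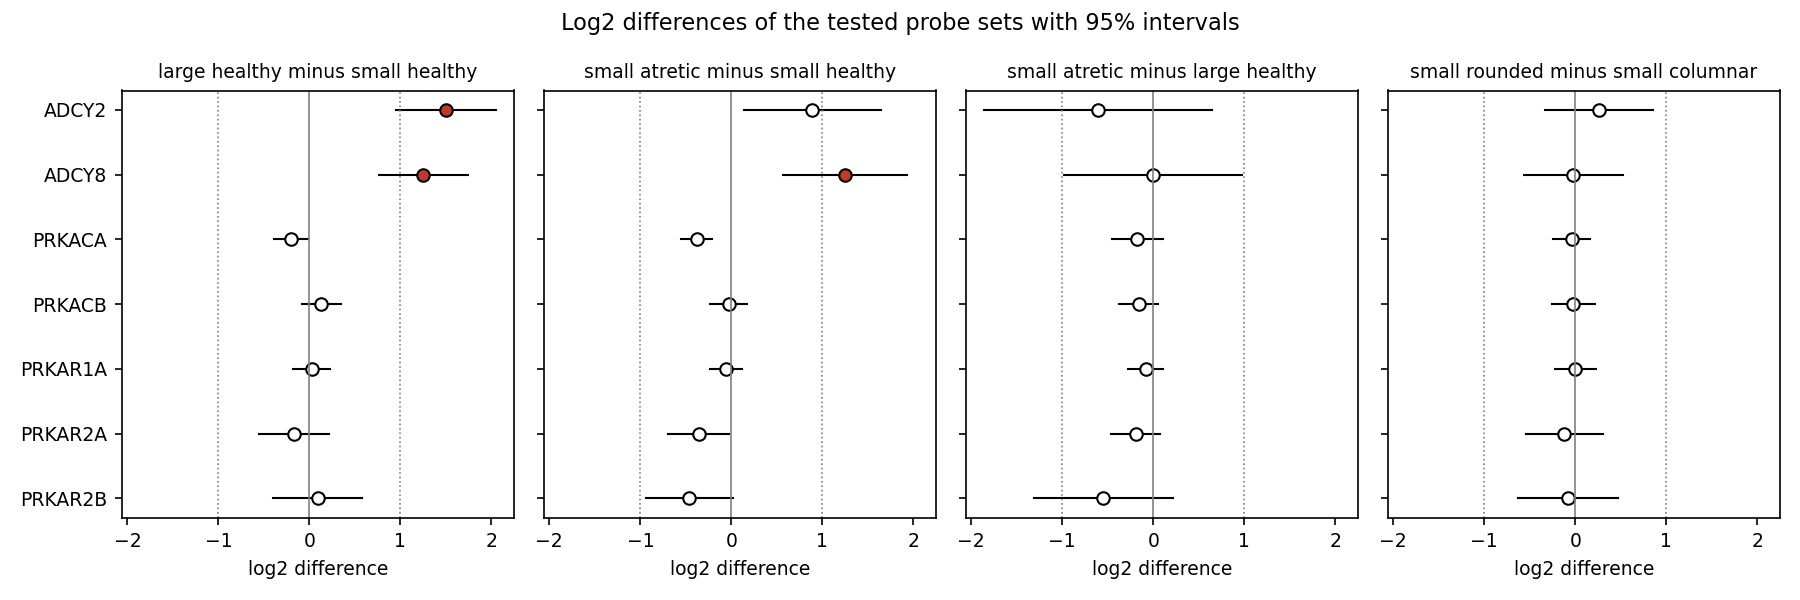
Log2 differences of the 7 tested member probe sets in the 4 comparisons, each the group named first minus the group named second. Points are the differences and lines their 95% intervals from limma, and filled points mark calls: ADCY2 at 1.5 and ADCY8 at 1.25 stand apart for large minus small healthy follicles and ADCY8 at 1.25 for atretic minus small healthy follicles, while all subunits of PKA lie between -0.55 and 0.13.

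Within groups the members did not move as 1 block. Over the 19 arrays ADCY2 and ADCY8 correlated at r = 0.78, and at 0.63 after the group means were subtracted. PRKACA ran against ADCY8 at r = -0.62, but at -0.21 within groups. The detected PRKACB probe set and PRKAR2A correlated at 0.56, and at 0.68 within groups. These are descriptions over arrays that share a normalization and their RNA preparation within groups.

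The genes most like each member were found among 9728 detected probe sets with 1 symbol, by Pearson's r over the 19 arrays. ADCY2 was most like DES (r = 0.91, 0.81 within groups), which encodes the muscle intermediate filament desmin, then GAS7 (0.90, 0.85) and CRYAB (0.89, 0.78), which encodes a small heat shock protein. ADCY8 was most like CPE (0.92, 0.87), a carboxypeptidase that trims peptide hormones, LMOD1 (0.92, 0.86), which nucleates actin filaments in smooth muscle, and EHBP1L1 (0.91, 0.92). PRKACA was nearest to CCND3 (0.90), a cyclin, B4GALT3 (0.90) and CXCL14 (0.90), each with 0.73 to 0.77 within groups. PRKAR2A went with SHMT2 (0.95), a mitochondrial enzyme of one-carbon metabolism, NUP160 (0.95) and PIGB (0.95), and PRKAR2B with EIF4H (0.92), ASPSCR1 (0.89) and ECD (0.88). The detected PRKACB probe set was nearest to YARS1 (0.82), and PRKAR1A to PPIB (0.77), the weakest match of the 7.

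Since DES and LMOD1 mark smooth muscle and pericytes, the summed marker lists were set beside the cyclases. In whole tissue, more cells of a type and more RNA per cell cannot be told apart. The smooth muscle and pericyte list had 10 of 11 genes on the array, all 10 detected, while NOTCH3 was not measured here. Its mean level was 7.59, 6.96, 6.77 and 6.74 in large follicles. In atretic follicles it was 6.69, 6.22, 6.55, 6.99 and 7.19, and in small healthy follicles it ran from 6.07 to 7.06. The highest large and the highest atretic follicle for this list, large replicate 1 and atretic replicate 5, were also those with the highest ADCY2 and ADCY8 of their groups. This was not particular to smooth muscle. The same follicles were the highest of their groups for endothelial markers (6.2 and 6.3). They were the lowest for steroidogenic (7.96 and 6.41) and granulosa markers (5.58 and 4.85). DES read 5.9, 4.2, 4.9 and 4.7 in large and 4.4, 3.6, 3.9, 5.1 and 5.2 in atretic follicles, and in both groups its highest and lowest follicle were those of ADCY2. In small healthy follicles the orders parted: DES read 4.0, a highest value of its group, in rounded replicate 3, where ADCY2 was lowest, and the lowest columnar follicle was replicate 1 for DES and replicate 4 for ADCY2.

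ADCY2 correlated with the mean level of this list at r = 0.82 (rho = 0.79, 0.73 within groups, 0.69 without the 2 arrays farthest from the median) and ADCY8 at r = 0.73 (rho = 0.68, 0.66 within groups, 0.62 without those arrays). These values describe 19 arrays, and DES and LMOD1 are themselves on the list. Of the 10 genes 1 was called higher in large than in small healthy follicles, DES at 1.25, beside 0.629% of all tested probe sets. The median difference over the list was 0.68. Between atretic and small healthy follicles 1 was called higher, MYH11 (smooth muscle myosin) at 1.12, beside 2.08% of all tested probe sets, with a median of 0.18. The genes of the list did not all move alike. PDGFRB read 4.6, 4.2, 3.9 and 4.0 in large and 4.0 to 4.6 in small healthy follicles. MCAM read 5.1, 5.3, 5.7, 5.6 and 6.3 in atretic and 5.7 to 7.0 in small healthy follicles. Other lists moved with the cyclases too. Endothelial markers averaged 5.84 in large, 5.63 in atretic and 5.39 in small healthy follicles and correlated at 0.75 with ADCY2 and 0.72 with ADCY8, and at 0.59 with each within groups. Leukocyte markers averaged 4.06 in large, 4.68 in atretic and 3.51 in small healthy follicles. Of their 9 tested genes 6 were called higher in atretic than in small healthy follicles, beside 2.08% of all tested probe sets. The leukocyte mean correlated at 0.66 with each cyclase and at -0.78 with PRKACA. Within groups the leukocyte values were 0.62 for ADCY2, 0.31 for ADCY8 and -0.40 for PRKACA. Fibroblast markers correlated at 0.61 with ADCY2 (0.22 within groups) and at 0.71 with ADCY8 (0.47 within groups). For ADCY8 the rank correlation was 0.74 with endothelial and 0.71 with fibroblast markers, both above its 0.68 with smooth muscle markers. The part of these cell types in the cyclase and PRKACA values was not tested. The steroidogenic list averaged 8.57 in large, 7.86 in atretic and 8.46 in small healthy follicles. Its gene CYP11A1, the first enzyme of steroid synthesis, was called lower in atretic than in small healthy follicles (-1.31). This list correlated with ADCY2 at -0.44 (-0.58 within groups) and with ADCY8 at -0.41 (-0.42 within groups). With PRKAR2B it correlated at 0.59 (0.50 within groups, 0.16 without the 2 arrays farthest from the median). Granulosa markers correlated with ADCY2 at -0.33 (-0.68 within groups) and with ADCY8 at -0.27 (-0.38 within groups). With PRKAR2B they correlated at 0.61 (0.53 within groups, 0.36 without the 2 farthest arrays). The part of steroidogenic and granulosa cells in these values was not tested. Granulosa markers averaged 6.25, 5.57 and 5.94 and fibroblast markers 9.58, 9.45 and 9.29, and 0 of 4 erythroid markers passed the detection level.

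**Figure D3:**
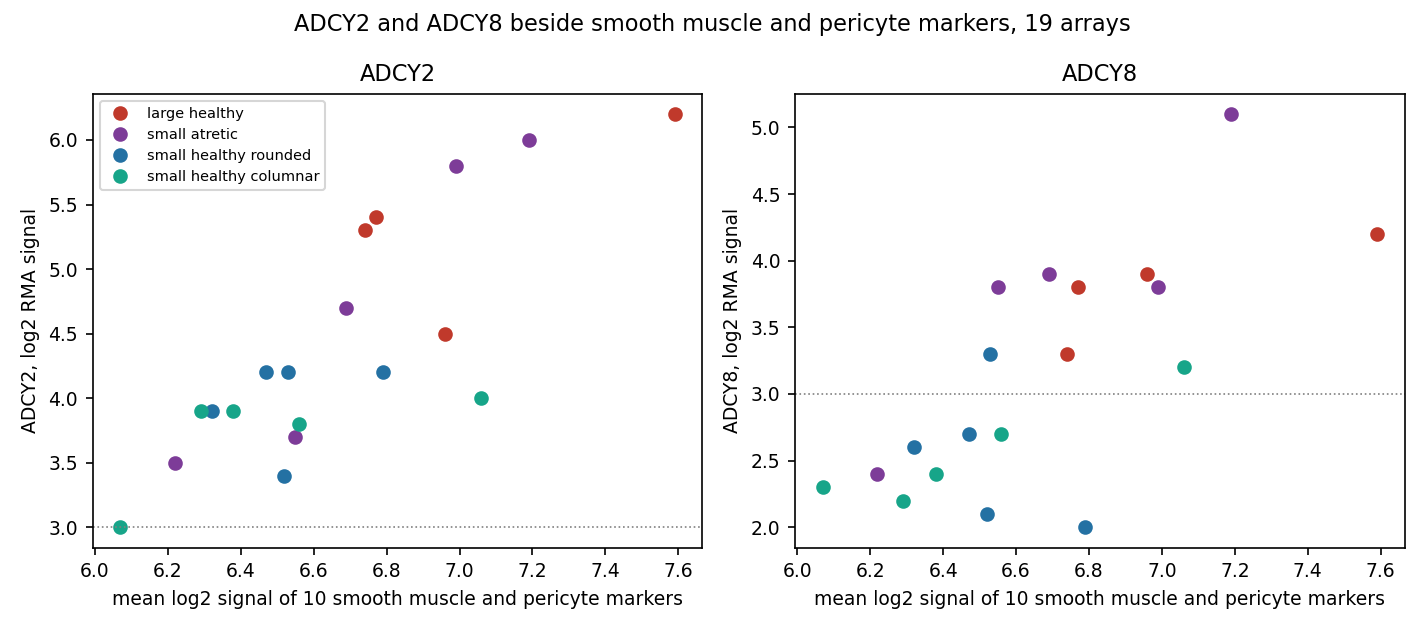
Log2 signals of ADCY2 and ADCY8 against the mean log2 level of the smooth muscle and pericyte markers, 1 point per array and 1 panel per gene, coloured by follicle group. Large replicate 1, at a marker mean of 7.59, and atretic replicate 5, at 7.19, carry the highest signals of their groups for both genes. Both arrays are also the highest of their groups for endothelial markers.

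Around the members the cAMP pathway was followed through 8 lists of 148 further genes, of which 83 had a probe set with a single symbol. Upstream, the luteinising hormone receptor LHCGR was dim. Its brightest probe set read 3.2, 4.2, 4.7 and 4.2 in large follicles and 3.7, 3.6, 4.1, 3.2 and 2.1 in atretic follicles, and 2.8 to 4.3 in small healthy ones, so that the groups overlapped. Large minus small healthy follicles differed by 0.35 (SE 0.28, adjusted p = 0.453) and atretic minus small healthy ones by -0.39 (SE 0.29, adjusted p = 0.300), neither of them past the test. GNAS, which encodes the stimulatory G protein alpha subunit, averaged 10.80 in large and 10.82 in small healthy follicles (adjusted p = 0.860). In atretic follicles it averaged 10.58 ± 0.11 (SD, n = 5) and was lower than in small healthy follicles, at 10.82 ± 0.06 (SD, n = 10), by a difference of -0.24 (SE 0.06, adjusted p = 0.0111), far under 2-fold. Of its other probe sets, 1 differed by -0.41 (adjusted p = 0.0124) and 1 by 0.13 (adjusted p = 0.400).

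Between large and small healthy follicles 59 of the pathway genes were tested and 1 (1.69%) was called, beside 0.706% of all tested probe sets. It was PTGER4, a prostaglandin E2 receptor coupled to the stimulatory G protein. PTGER4 read 5.1, 4.1, 4.0 and 4.7 in large follicles and 2.7 to 4.1 in small healthy ones, so that 2 of 4 large follicles stood above all small healthy follicles and the others overlapped with them. The difference was 1.09 (SE 0.25, adjusted p = 0.0311), and over its alternatives the adjusted p ran from 0.0234 to 0.276. Without large replicate 1 it was 0.88 (adjusted p = 0.0656) and without large replicate 4 it was 1.01 (adjusted p = 0.115). The other 3 tested cyclases were not called: ADCY7 differed by 0.67 (adjusted p = 0.0857), ADCY4 by 0.43 (adjusted p = 0.103) and ADCY6 by -0.08 (adjusted p = 0.629). The median difference over the 59 genes was 0.06, with 36 above and 23 below 0.

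Between atretic and small healthy follicles 57 pathway genes were tested and 4 (7.02%) were called, all higher, beside 3.68% of all tested probe sets. With no fold limit 14 were higher and 2 lower, which makes 28.1%, below the 31.9% of all tested probe sets. PTGER4 read 4.8, 4.1, 4.1, 4.7 and 6.0 in atretic follicles, a difference of 1.35 (SE 0.28, adjusted p = 0.00439). The other 3 belong to the 10 tested genes known to be induced through CREB, a list whose median difference was 0.70 and of which 7 passed the adjusted p, all higher. That list was written with earlier results of these data known, so its median and count are descriptions and no independent evidence. FOS, an immediate early transcription factor, averaged 9.20 ± 0.57 in atretic and 7.56 ± 0.77 in small healthy follicles (SD, n = 5 and 10), a difference of 1.64 (SE 0.35, adjusted p = 0.00499), and its second probe set gave 1.65. EGR1, another immediate early factor, differed by 1.20 (adjusted p = 0.00473) and CITED2, a transcriptional coregulator, by 1.16 (adjusted p = 0.00725). In each of these 3, large replicate 1 and rounded replicate 1 read high as well, with EGR1 at 9.3 and 8.8 where atretic follicles ran from 8.0 to 9.3. None of the 4 calls held against rounded follicles alone, where the differences were 1.42 for FOS, 1.12 for EGR1, 1.12 for PTGER4 and 0.94 for CITED2 and adjusted p ran from 0.0718 for FOS to 0.123 for CITED2. All 4 held against columnar follicles alone. Leukocyte markers were higher in the same atretic follicles, as given above, and their part in these values was not tested.

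Further genes of the lists passed the adjusted p in atretic theca with less than a 2-fold difference, at a rate no higher than that of all tested probe sets (31.9%), so nothing is read from their number. Among genes induced through CREB, NR4A2, an orphan nuclear receptor, was higher by 0.76 (adjusted p = 0.00358), NFIL3 by 0.55 (adjusted p = 0.0131) and JUNB by 0.67 (adjusted p = 0.0147), although the second tested NR4A2 probe set gave -0.04. ADCY7, a cyclase well known from blood cells, averaged 4.22 ± 0.51 in atretic and 3.36 ± 0.42 in small healthy follicles (SD, n = 5 and 10), a difference of 0.86 (adjusted p = 0.0122), and it met the criteria for a call without atretic replicate 3, at 1.04. The anchoring proteins AKAP8L and MAP2 were higher by 0.50 and 0.45 (adjusted p = 0.0274 and 0.0487), and the phosphodiesterase gene PDE7B, whose product breaks down cAMP, by 0.59 (adjusted p = 0.0195). RAMP1, a partner of the receptor for calcitonin gene-related peptide, was higher by 0.43 (adjusted p = 0.0240). The CREB coactivator CRTC1 gave 0.45 (adjusted p = 0.0240) on its brightest probe set, and 0.06 and -0.19 on its others. CAP1, a cyclase-associated protein that binds actin, was lower, with a difference of -0.40 (adjusted p = 0.0192). The 2 other PKA genes tested, PRKAR1B and the inhibitor gene PKIG, differed by 0.17 and 0 and did not pass.

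Between atretic and large follicles limma called 0 of 58 pathway genes, with 5 at an unadjusted p under 0.05, and between rounded and columnar follicles it called 0 of 59, with 0 at an unadjusted p under 0.05. The analysis of variance model called 0 in both.

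**Figure D4:**
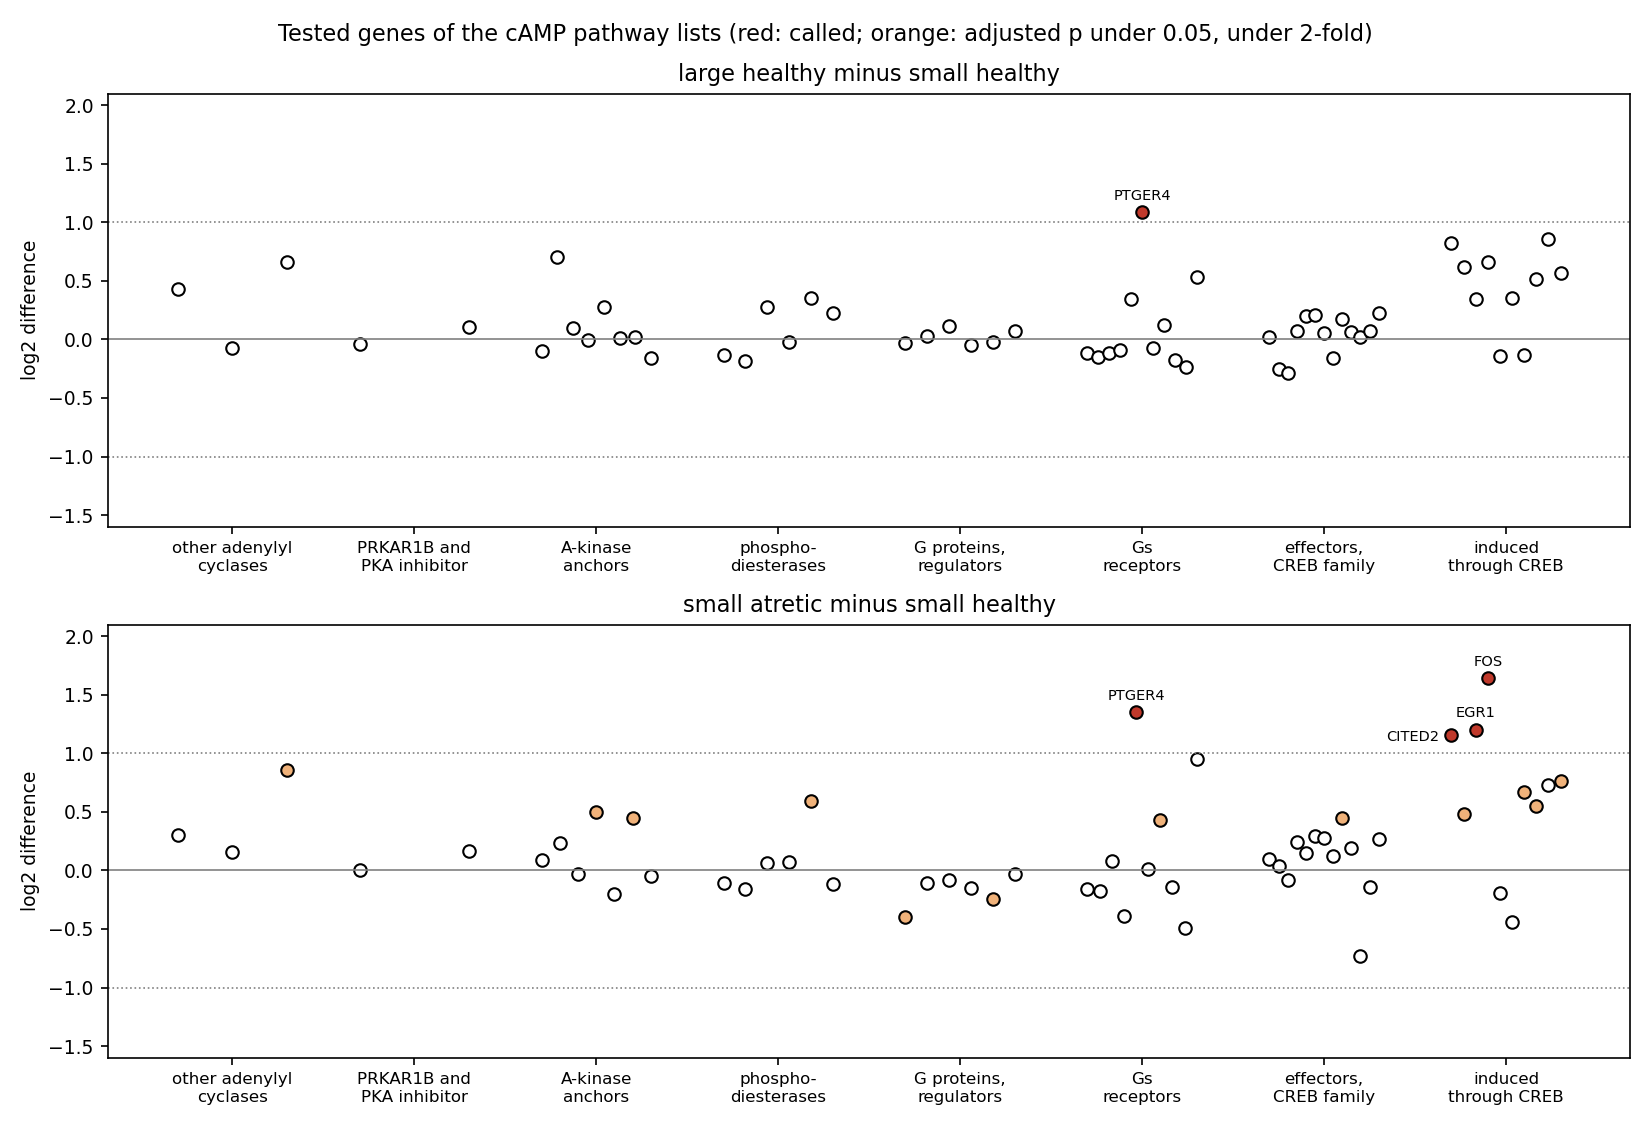
Log2 differences of the tested pathway genes by list, 1 point per gene, with large minus small healthy follicles above and atretic minus small healthy follicles below, with called genes in red and labelled and genes past the adjusted p but under 2-fold in orange. PTGER4 is the single call above, at 1.09, and PTGER4, FOS, EGR1 and CITED2 are called below, between 1.16 and 1.64.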

How the data were processed

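RNA of bovine theca interna was hybridised to 19 Affymetrix arrays. The authors summarised probes by RMA with quantile normalization and deposited log2 signals per probe set, with 1 decimal. The submitters' processing notes name Partek 6.5. No source used here says if the 19 arrays entered 1 normalization.

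Groups and replicate numbers came from the sample records. Of 24127 probe sets 13317 had 1 symbol, 86 several and 10724 none, and those with several or none named no gene. Testing required a signal above 3 on 50% or more of the arrays from any 1 follicle type in the fit (large follicles included for rounded against columnar), and 111 control probe sets were left out. Groups were compared in limma 3.58.1 (R 4.3.3), with p-values adjusted by Benjamini-Hochberg across every tested probe set, and called at an adjusted p under 0.05 and 2-fold. Rounded and columnar follicles were compared in a fit of the 3 healthy groups. A pathway gene was represented by its brightest probe set.

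The members and the 8 pathway and 7 marker lists were chosen with earlier results of these data known. From each pathway list the called genes were named, then up to 3 more by the smallest adjusted p under 0.05, and LHCGR and GNAS whatever their values. Marker genes named beside a member were chosen after their values were seen. Alternatives covered the filter, normalization, moderation, fold limit, arrays, probe set, replicate block and follicles compared. The fit was tested on simulated data. Precision is limited by the number of arrays, which have no read depth.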

Additional observations from a re-analysis of the deposited data

Results flagged for a closer look

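Among 120 groups of values over 24 probe sets, 6 held a follicle far from the rest of its group, and chance alone gives about 1 in 20, or 6. ADCY2 read 3.0 in columnar replicate 4, the lowest of 5, with the nearest at 3.8. EGR1 read 8.8 in rounded replicate 1, the highest of the 5 rounded follicles, with the nearest at 7.4, and also the highest of the 10 small healthy ones, with the nearest at 7.7. LHCGR read 2.8 in columnar replicate 2, the lowest of 5, with the nearest at 4.0. GNAS read 10.9 in columnar replicate 5, with the other 4 at 10.8, and 10.7 in rounded replicate 1, the lowest of 10, with the nearest at 10.8. These GNAS gaps are 1 step of the deposited rounding.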

How the results depend on the processing

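Between large and small healthy follicles 110 probe sets, 2 members and 1 pathway gene were called. Other settings gave 54 probe sets and 0 pathway genes (analysis of variance without moderation), 317 (1.5-fold limit), 557 (no fold limit), 59 with 1 member and 0 pathway genes (without the 2 arrays of highest CYP19A1), 12 with 0 members and 0 pathway genes (rounded follicles alone) and 1 member (filter at 4, under which ADCY8 was not tested). Against columnar follicles alone 90 probe sets, 2 members and 1 pathway gene were called. Leaving out 1 array gave 54 to 162 probe sets and 0 to 1 pathway genes, with 54 without large replicate 4, and 70 and 72 without columnar replicates 1 and 2. Between atretic and small healthy follicles 569 probe sets, 1 member and 4 pathway genes were called. This became 1783 probe sets and 8 pathway genes (1.5-fold limit), 4939, 2 members and 16 pathway genes (no fold limit), 151, 0 members and 0 pathway genes (rounded follicles alone) and 0 members (filter at 4). Against columnar follicles alone it was 726 probe sets, 1 member and 4 pathway genes. Leaving out 1 array gave 0 to 2 members. Between atretic and large follicles 0 were called, against 43 in 1 fit of all groups and 0 to 92 with 1 array left out (40 without large replicate 1, 92 without large replicate 4 and 2 without atretic replicate 3).

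ADCY2 was called between large and small healthy follicles in 25 of 26 alternatives (1.22 to 1.79), and ADCY8 in 23 of 25 (1.12 to 1.42). ADCY8 was called between atretic and small healthy follicles in 24 of 26 (0.93 to 1.60). The members were chosen from these same arrays, and ADCY8 passed the filter only through the groups where it reads high. These counts therefore describe the settings and lend the differences no support. GNAS between large and small healthy follicles turned to 0.0064, from -0.02, when normalized again. Uncalled member differences near 0 also changed sign: PRKAR1A between large and small healthy follicles in 3 alternatives (lowest -0.03), PRKAR2B there in 1 (-0.06), and PRKACB between atretic and small healthy follicles in 2 (highest 0.03), and between rounded and columnar follicles ADCY8 in 5 (highest 0.14), PRKACB in 3 and PRKAR2B in 3. The causes were not tested.

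Replicate numbers did not pair the follicles throughout: of 27 same-numbered pairs, 10 had correlated deviations over 0.1, and 5 of 19 arrays correlated best with their own number. The pairs ran from -0.34 to 0.57, the highest being rounded with columnar replicate 4. If some same-numbered follicles shared an animal or a batch was not tested. With the replicate block, 77 probe sets, 2 members and 0 pathway genes were called between large and small healthy follicles, and 564, 1 and 4 between atretic and small healthy ones, with 0 in the other comparisons.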
